A study of Mytilus galloprovincialis with 16 samples.

Results

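The clones described here were those whose mRNA stood higher at stage 2 than at stages 1 and 3 while the male gonad developed in the mantle of the mussel Mytilus galloprovincialis. A clone is a cDNA spotted in duplicate on a glass slide, and 60 of the 1920 clones on the array met the rule. They were chosen by the log2 ratios that the authors deposited, each the later over the earlier stage. The mean ratio of stage 2 over stage 1 had to be at least 0.3, the mean ratio of stage 3 over stage 2 at most -0.3, and each had to have the same sign on all 4 arrays of its pair of stages. The 8 arrays of these 2 pairs chose the clones, so their values are a description and carry no test. The 8 arrays that set stage 4 against stage 3 and stage 4 against stage 1 were not used by the rule. The tests of the main fit come from these 8 arrays only. Some alternative fits, named where they are given, also held the arrays of the rule. The p-values and counts of those fits are not separate from the choice of the clones. In the scanner files of the same arrays, normalized by print block, 47 of the 60 met the rule, and the mean ratio of stage 3 over stage 2 was on the other side of 0 for 1 clone (0.69, against -0.80 in the deposited values).

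All animals were male mussels from Bizerta Lagoon, Tunisia, with no treatment, and RNA was taken from the mantle of single individuals. The groups were the stages themselves, each from a single month: stage 1 (early) from November, stage 2 (development) from January, stage 3 (ripe) from February and stage 4 (spawning) from March. Stage and month of sampling, with the season, cannot be told apart in any comparison. On Stage3/Stage2 replicate 1 the labels give different months for the channel of stage 3, and the stage named in the title was used. Each of the 16 arrays set RNA of one stage against RNA of another in a loop of 4 pairs of stages, with 4 arrays per pair, and the later stage carried Cy5 on 2 arrays of each pair and Cy3 on the other 2. The labels do not say which animals stood on which arrays, so p-values measure the spread between arrays. The paper describes a loop over successive stages in 4 biological replicates, so the same RNA may stand in 2 pairs of stages. Whether the arrays tested share animals with the arrays of the rule is thus not known.

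In mussels the gonad grows into the mantle, which serves as a store of glycogen and lipid and turns into a tissue filled with gamete follicles as the season proceeds. In males the follicles hold spermatogonia first, then spermatocytes and spermatids, and ripe sperm in the end, which are shed at spawning. A transcript that is high during the developing stage and lower in the ripe mantle is therefore seen against a tissue whose cell types change in number, and in bulk tissue fewer cells of a type and less RNA per cell cannot be told apart. No gene is paired with a clone in the tables used here, so no function, marker or pathway is given for any of the 60, and the tissue of the labels could not be checked against marker genes. The clones are named by their position in the library, and 4 are named: the 2 with the highest ratio of stage 2 over stage 1 and the 2 others with the lowest ratio of stage 3 over stage 2.

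The size of the peak differed widely among the 60 clones. The mean log2 ratio of stage 2 over stage 1 ranged between 0.30 and 3.25 with a median of 0.58, and its middle 50% lay between 0.48 and 0.81. The mean ratio of stage 3 over stage 2 ranged between -2.55 and -0.33 with a median of -0.76. Most of the peaks were therefore less than 2-fold on the early side: 11 clones had a ratio above 1 for stage 2 over stage 1, against 24 with a ratio below -1 for stage 3 over stage 2, and the 11 were all among the 24. The later difference was larger in size than the earlier one for 40 of the 60 clones, and it was below -2 for 8.

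The arrays of a pair agreed in sign by the rule but not in size. For stage 2 over stage 1 the median of the 60 clones was 0.59, 0.92, 0.44 and 0.45 on replicates 1 to 4. For stage 3 over stage 2 it was -0.51, -0.97, -1.10 and -0.67. Replicate 2 gave the largest early difference and replicates 2 and 3 the largest later ones. Duplicate spots of the 60 clones correlated at 0.94 to 0.95 on the Stage2/Stage1 arrays and at 0.887 to 0.986 on the Stage3/Stage2 arrays.

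The edges of the rule were close to its thresholds. The 3 lowest clones inside had ratios of stage 2 over stage 1 of 0.30, 0.32 and 0.33, and the 3 nearest outside, which met the other conditions, had 0.29, 0.27 and 0.26. For stage 3 over stage 2 the 3 nearest inside had -0.33, -0.33 and -0.43, against -0.26, -0.24 and -0.22 outside. A further 25 clones passed both thresholds and were left out by the sign condition, 19 of them on the Stage2/Stage1 arrays only, 5 on the Stage3/Stage2 arrays only and 1 on both. Clones of small peak size thus stood next to others that the rule did not take.

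Whether stage 2 was also above stage 4 had to be read through another stage, since these were never on the same array. With the scanner values of the same arrays, 56 of the 60 clones were lower at stage 4 than at stage 2 when read through stage 3, with a median log2 difference of -0.78, and 59 were lower when read through stage 1, with a median of -0.54. Both routes gave a lower stage 4 for 55 clones, and both gave a higher one for 0. These sums contain the arrays of the rule, which favours a lower stage 4 by both routes, and describe the clones only. No share over all clones was computed beside these counts.

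**Figure D1:**
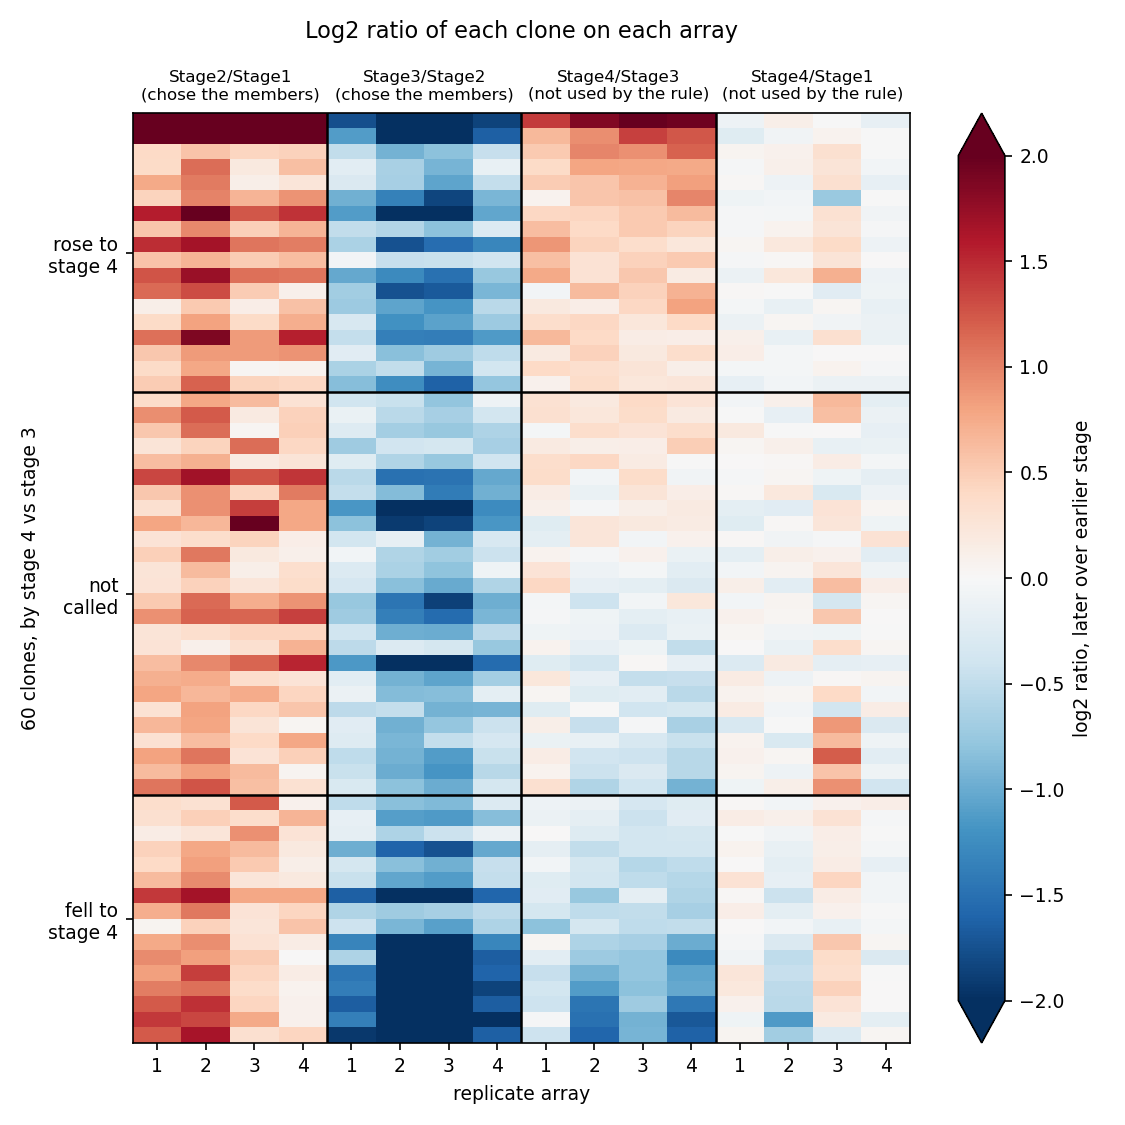
Log2 ratio (colour, later over earlier stage, limited to 2 in either direction) of the 60 clones (lines) on the 16 arrays (columns, replicates 1 to 4 of each pair of stages). The Stage2/Stage1 and Stage3/Stage2 columns hold deposited values and are red and blue by the rule. In the Stage4/Stage3 columns, from the scanner files, the clones part into 18 that rose, 26 not called and 16 that fell. The Stage4/Stage1 columns are mostly pale apart from replicate 3 and some clones on replicate 2, where the lowest value was -1.14.

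In the heat map of clones by arrays, the clones were alike in direction up to stage 3 in the deposited values, as the rule required. From stage 3 to stage 4 the rule set no direction, and the clones went both ways, as did the clones of the whole array. Between stage 3 and stage 4, 18 of the 60 clones rose and 16 fell, and 26 were not called (limma, adjusted p below 0.05, Benjamini-Hochberg over 1920 clones). The 18 that rose were 30% of the group, against 15.4% among all clones, and the 16 that fell were 26.7%, against 16.1%. In either direction 34 were called, or 56.7% against 31.5%. The median change of the 60 clones was -0.04 on the log2 scale and that of all clones -0.01, so the group as a whole did not lie to one side.

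The 60 clones were also brighter than most. The mean brightness of the 60 clones over both dyes and all arrays had a median of 8.51 on the log2 scale, against 7.17 for all clones, and 55 of the 60 were brighter than the median clone. A spot counted as well above background where the foreground lay more than 2 SDs of the local background over its median, and 826 clones did so for both dyes on 4 or more of the 8 arrays fitted. Among these, 24.6% rose, 26.5% fell and 51.1% were called in either direction. Of the 48 peak clones among them, 17 rose, 12 fell and 29 were called. Set against clones of measurable signal, the share called in the group (29 of 48) was closer to the background.

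The calls, and most of all those of a fall, depended on the setting. With median centring of the arrays in place of loess 13 rose and 6 fell, 19 of the 60 against 20.2% of all clones. With scaling between arrays 12 rose and 7 fell, 19 against 18.6%. At a log odds (B) above 0, 9 rose and 5 fell, 14 against 12.6%. In the loop fit to all 16 arrays 11 rose and 2 fell, 13 against 24.1%. That fit contains the arrays of the rule, which required a low stage 3. Its counts and p-values are therefore not separate from the choice of the clones.

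The calls also depended on single arrays. Without Stage4/Stage3 replicate 3 the count of called clones was 21 of the 60 (12 rose and 9 fell), against 21.5% of all clones. Without replicate 4 it was 22 (14 and 8), against 20.8%, and without replicate 2 it was 23 (13 and 10), against 23%. Leaving out each of the other 5 arrays in turn gave a count of 30 to 39. On these arrays 38 of the 60 clones kept 1 sign on all 4 replicates (63.3%, against 46.2% of all clones), 20 of them higher and 18 lower at stage 4. The sign was the same in both dye orientations for 53 of the 60 clones (88.3%, against 71% of all clones) and for all 34 that were called. For 4 of the 34, one of the stages was well above background in no channel of these arrays, so that only a bound holds for their fold.

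The clones that rose and the clones that fell to stage 4 had different median drops before it. For the 18 that rose, the change to stage 4 was 0.24 to 1.81 with a median of 0.47, and their median ratio of stage 3 over stage 2 was -0.98. For the 16 that fell, the change was -1.14 to -0.20 with a median of -0.53, and the earlier ratio had a median of -1.53. The 26 not called had earlier ratios with a median of -0.66. Of the 8 clones with a ratio below -2 for stage 3 over stage 2, 6 fell further to stage 4 and 2 rose. Some of the 6 held the same well position on neighbouring plates, and whether these hold the same cDNA was not tested.

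The relation was not an ordered one. Among the 15 clones with the deepest drop between stage 2 and stage 3, 3 rose and 9 fell. Among the next 15, 8 rose and 2 fell, then 3 rose and 4 fell, and among the 15 with the shallowest drop 4 rose and 1 fell. Across the 60 clones the correlation between the ratio of stage 3 over stage 2 and the change to stage 4 was 0.208 (Pearson) or 0.215 (Spearman). The clones share arrays, and both measures contain stage 3, so this is a description. Median brightness was close in the 3 classes, at 8.38 for the clones that rose, 8.48 for those that fell and 8.56 for those not called.

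**Figure D2:**
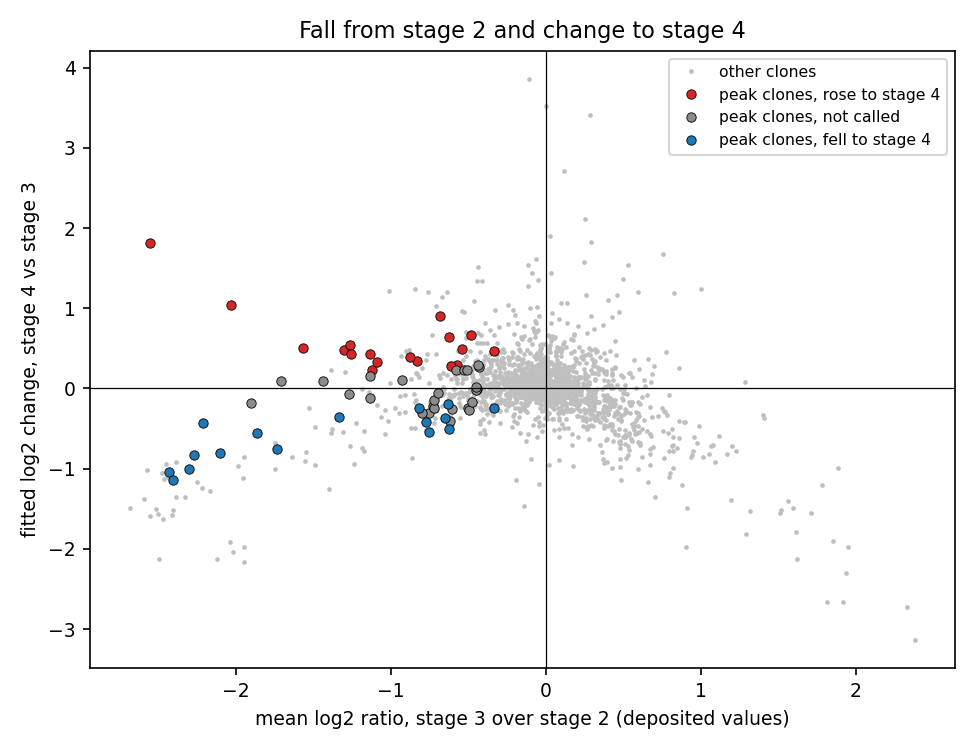
Fitted log2 change of stage 4 vs stage 3 (vertical) against the mean deposited log2 ratio of stage 3 over stage 2 (horizontal) for the 60 clones by call and for all other clones in grey. At horizontal values below -2 the 60 clones hold 6 that fell and 2 that rose, and the 2 lie apart from the rest at 1.81 and 1.04.

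The clones with the 2 highest peaks rose again to stage 4. Clone Myt01-013D04 had log2 ratios of stage 2 over stage 1 of 2.83, 4.24, 2.56 and 3.37 on replicates 1 to 4 (mean 3.25 ± 0.74, SD, n = 4), a 9.51-fold higher level at stage 2. Its ratios of stage 3 over stage 2 were -1.76, -3.00, -3.61 and -1.86 (mean -2.55 ± 0.90). It had both the highest early ratio and the lowest later ratio of the 60 clones. On the Stage4/Stage3 arrays it measured 1.39, 1.86, 2.04 and 1.94, all well above 0. The fitted rise was 1.81 (SE 0.10), or 3.50-fold, with a limma adjusted p of 1.96e-05, and it was called in each of the 20 alternatives tried. On the Stage4/Stage1 arrays it measured -0.11, 0.12, -0.01 and -0.16, on both sides of 0.

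Clone Myt01-008H05 had ratios of stage 2 over stage 1 of 2.53, 3.47, 2.94 and 2.73 (mean 2.92 ± 0.41, SD, n = 4) and ratios of stage 3 over stage 2 of -1.11, -2.72, -2.65 and -1.63 (mean -2.03 ± 0.79). Its stage 4 over stage 3 ratios were 0.65, 0.92, 1.36 and 1.24, again all above 0. The rise was 1.04 (SE 0.11), or 2.06-fold, with a limma adjusted p of 0.000255, and it was not called in the loop fit to all 16 arrays (0.55, adjusted p = 0.202). Stage 4 over stage 1 gave -0.24, -0.07, 0.07 and -0.01, close to 0 on every array but the first. These 2 clones were the only ones of the group whose rise to stage 4 was past 2-fold.

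The other 2 clones named, which were 13th and 12th of the 60 by the ratio of stage 2 over stage 1, fell further to stage 4. Clone Myt01-012D02 had ratios of stage 2 over stage 1 of 1.42, 1.33, 0.76 and 0.09 (mean 0.90 ± 0.62, SD, n = 4), so that replicate 4 was close to no difference. Its ratios of stage 3 over stage 2 were -1.37, -3.08, -3.12 and -2.14 (mean -2.43 ± 0.84), a 5.38-fold lower level at stage 3. From there it measured -0.02, -1.50, -0.94 and -1.70 at stage 4 over stage 3, with replicate 1 at no difference. The fall was -1.04 (SE 0.27) with a limma adjusted p of 0.0164, and the call was lost in 8 of the 20 alternatives (adjusted p between 0.00228 and 0.504 over all 20), among them those without Stage4/Stage3 replicates 2, 3 and 4 (adjusted p = 0.0808, 0.0549 and 0.0826). At stage 4 over stage 1 it measured -0.09, -1.14, 0.18 and -0.19, so that replicate 2 was as far below 0 as the fitted fall from stage 3. The fitted value was -0.31 (SE 0.27, limma adjusted p = 0.99), and it was -0.93 in the loop fit (adjusted p = 0.457).

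Clone Myt01-013D02 had ratios of stage 2 over stage 1 of 1.22, 1.65, 0.32 and 0.43 (mean 0.90 ± 0.64, SD, n = 4) and of stage 3 over stage 2 of -1.93, -2.78, -3.30 and -1.63 (mean -2.41 ± 0.77). At stage 4 over stage 3 it measured -0.42, -1.58, -0.93 and -1.62, all below 0 and spread over more than the 2 clones that rose. The fall was -1.14 (SE 0.20), or 2.20-fold, with a limma adjusted p of 0.0021. It was not called in the loop fit (-0.74, adjusted p = 0.1). At stage 4 over stage 1 it measured 0.06, -0.69, -0.28 and 0.03, with replicate 2 the lowest. The fitted value was -0.22 (SE 0.20, limma adjusted p = 0.99), and -0.61 in the loop fit (adjusted p = 0.539). All 4 clones named were well above background in all 8 channels of each stage, apart from Myt01-008H05 with 7 of 8 at stages 1 and 3.

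**Figure D3:**
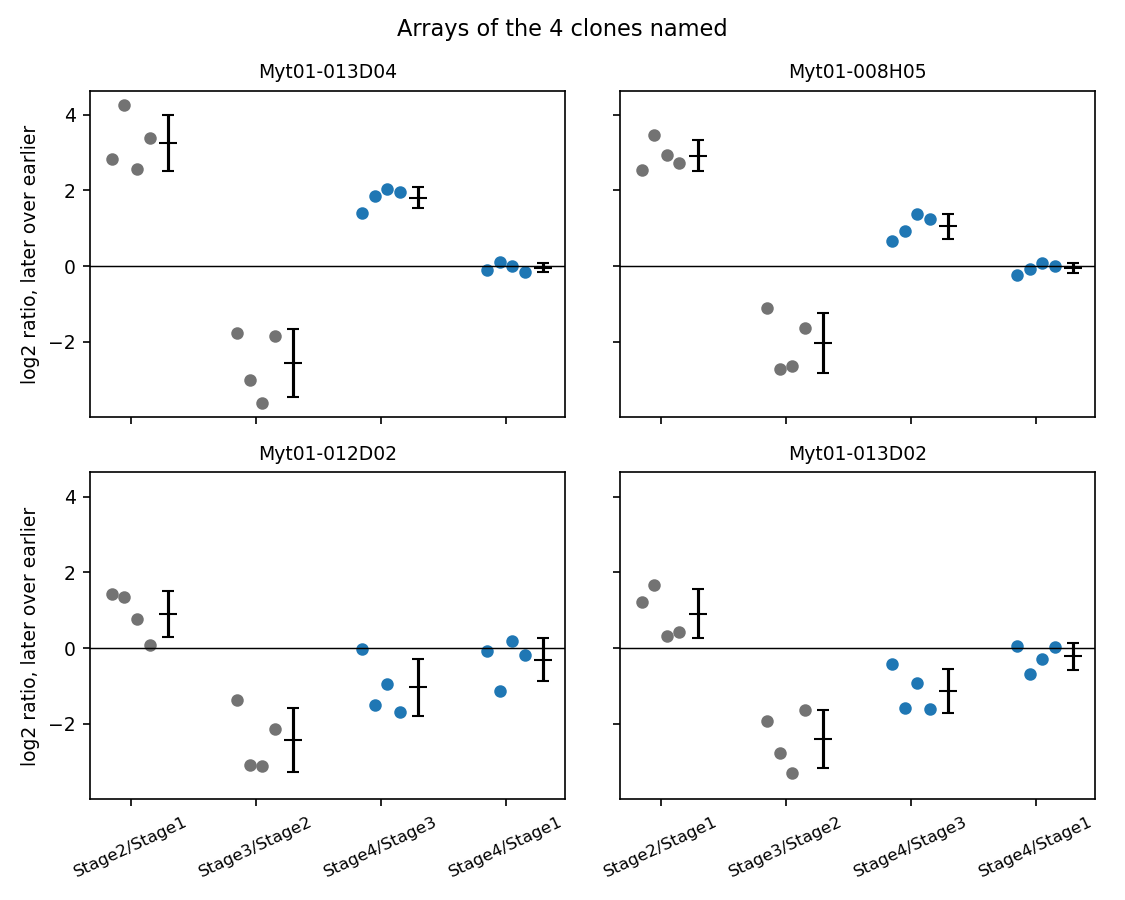
Log2 ratio (later over earlier stage) of the 4 clones named on each array of the 4 pairs of stages. Points are single arrays, grey for the pairs that chose the clones and blue for the others, and bars are the mean ± SD of 4 arrays. Stage4/Stage3 ratios of the upper 2 clones lie between 0.65 and 2.04 and those of the lower 2 between -1.70 and -0.02, while Stage4/Stage1 ratios lie between -0.24 and 0.12 in the upper 2 and between -1.14 and 0.18 in the lower 2.

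Stage 4 over stage 1 asks whether the spawning mantle differed from the early mantle. None of the 60 clones was called (0%), and none of the 1920 clones was called either (0%), with a smallest limma adjusted p of 0.99. At an unadjusted p below 0.05 the count was 0 of the 60 and 47 of the 1920, and the same fit called 0 of the 60 in each of the other settings tried. Fitted changes of the 60 clones lay between -0.31 and 0.28 with a median of 0.02, 34 of them above 0, and 4 were larger than 0.2 in size. The range of the same clones was -1.14 to 1.81 for stage 4 vs stage 3, in the same fit. That fit gave each clone 1 spread shared by both pairs, so a clone had the same SE for both comparisons. For Myt01-013D04 the SD over arrays was 0.29 for stage 4 over stage 3 and 0.12 for stage 4 over stage 1, and for Myt01-008H05 0.32 and 0.13. It was 0.75 and 0.57 for Myt01-012D02, and 0.57 and 0.35 for Myt01-013D02. The count of 0 thus rests on a spread that includes the Stage4/Stage3 arrays.

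The arrays of this pair held small ratios and differed from each other. The SD of the ratios over the 60 clones was 0.112 to 0.341 on the Stage4/Stage1 arrays, against 0.373 to 0.702 on the Stage4/Stage3 arrays. Duplicate spots of the 60 clones correlated at 0.438 to 0.861 on the Stage4/Stage1 arrays, against 0.82 to 0.978 on the Stage4/Stage3 arrays. The median of the 60 clones was 0.01, -0.05, 0.21 and -0.05 on replicates 1 to 4, with 45 of 60 above 0 on replicate 3 and 15 of 60 on replicate 4. A single sign on all 4 arrays was seen for 3 of the 60 clones (5%), against 9.95% of all clones. A p that misses the threshold does not show equal levels.

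Stage 3 against stage 1 can be read without the arrays of the rule only as stage 4 over stage 1 minus stage 4 over stage 3. By this route 9 of the 60 clones rose (15%, against 9.95% of all clones) and 11 fell (18.3%, against 8.28%), 20 in all (33.3%, against 18.2%). Among the 826 clones well above background, 33.4% were called, and among the 48 peak clones there, 19. The 11 that fell were all clones that rose again to stage 4, and the 9 that rose were all clones that fell to stage 4. The comparisons share the Stage4/Stage3 arrays, so that this opposition is built in and adds nothing to the result for stage 4 vs stage 3.

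The count of 20 depended on several arrays. It was 13, 10 and 11 of the 60 without Stage4/Stage3 replicates 2, 3 and 4, against 12.3%, 11.9% and 11.8% of all clones. Without Stage4/Stage1 replicate 1 it was 7 of the 60, against 10.9%, and without Stage4/Stage1 replicate 4 it was 11. The values of the clones named were -1.85 (SE 0.15, limma adjusted p = 0.000411) for Myt01-013D04, -1.11 (SE 0.16, adjusted p = 0.00356) for Myt01-008H05, 0.73 (SE 0.38, adjusted p = 0.231) for Myt01-012D02 and 0.92 (SE 0.28, adjusted p = 0.047) for Myt01-013D02. The last of these calls was lost in 14 of the 20 alternatives, and in the loop fit the first 2 were -0.41 and -0.12 and not called.

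**Figure D4:**
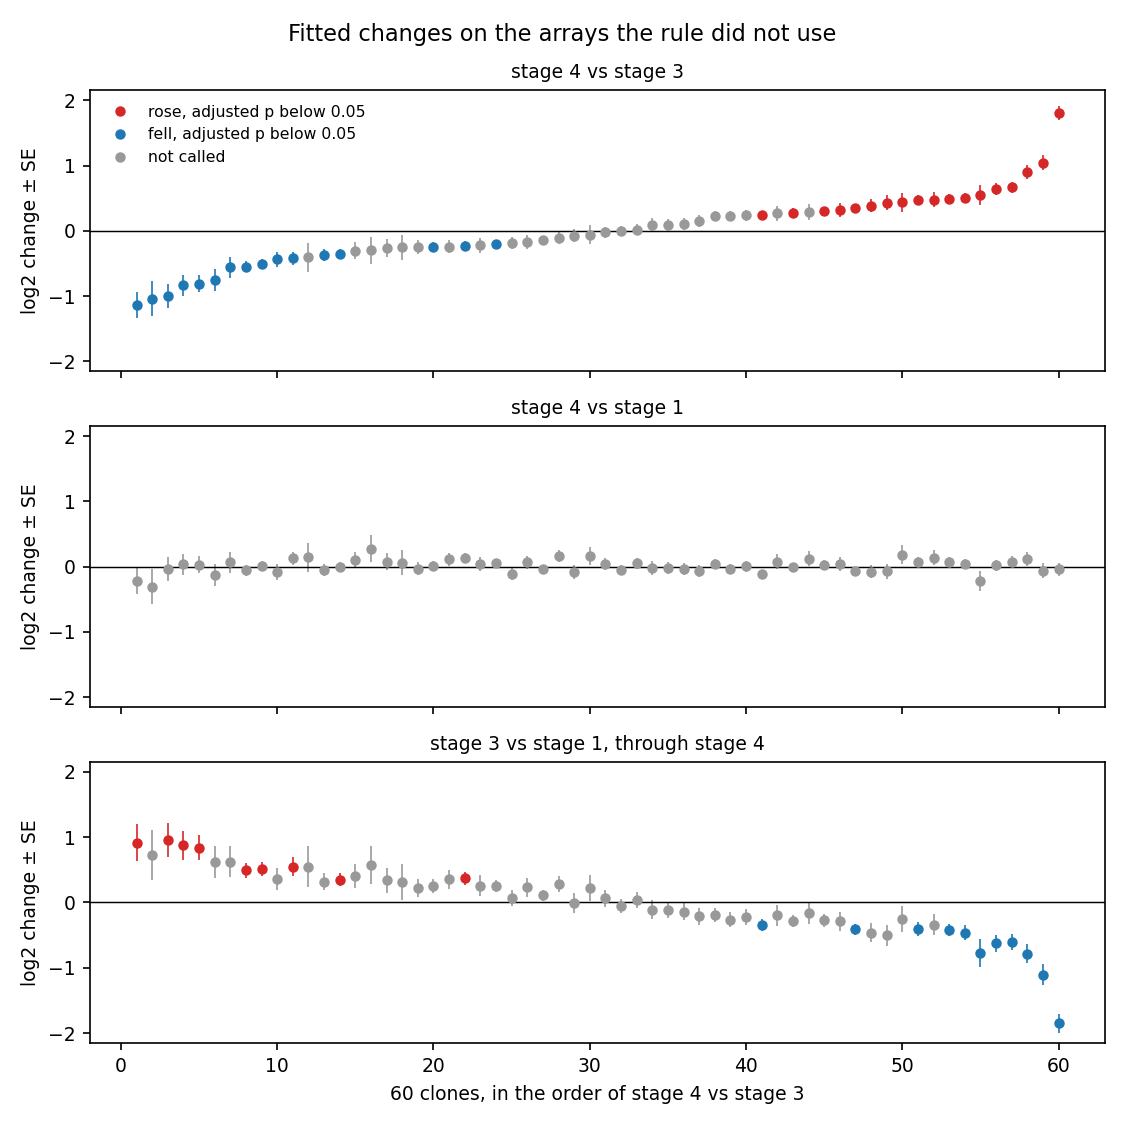
Fitted log2 change ± SE of the 60 clones, in the order of their change of stage 4 vs stage 3, for stage 4 vs stage 3 (top), stage 4 vs stage 1 (middle) and stage 3 vs stage 1 through stage 4 (bottom). Red and blue mark clones that rose or fell at a limma adjusted p below 0.05: 18 and 16 at the top, 0 in the middle, 9 and 11 at the bottom, where the order is turned over because both panels hold the Stage4/Stage3 arrays.

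The 2 routes between stage 3 and stage 1 did not give the same picture of these clones. Through stage 2, on the arrays of the rule and with scanner values, 38 of the 60 clones were lower at stage 3 and 22 higher. Through stage 4, 29 were lower and 31 higher. Both routes gave a lower level for 14 clones and a higher level for 7, and for 39 they had opposite signs. The median size of the difference between routes was 0.49 for the 60 clones and 0.26 for all clones. Opposite signs were not counted over all clones, and the route through stage 2 uses the arrays that chose the 60. Neither the 39 nor the 0.49 is therefore read as a trait of the group. For Myt01-013D04 the log2 value was 1.02 through stage 2 and -1.85 through stage 4, and for Myt01-008H05 it was 0.87 and -1.11. For Myt01-012D02 it was -1.75 and 0.73, and for Myt01-013D02 -0.66 and 0.92. With the deposited values the route through stage 2 gave 0.70, 0.89, -1.53 and -1.50 for these 4 clones in turn, so that the last differed between the 2 sources. The sign of stage 3 against stage 1 was thus not settled for any of the 4. The labels do not say whether a stage was represented by the same animals on different pairs of arrays, and its part in the difference was not tested.

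Signal above background followed the stages. At stage 1, 26 of the 60 clones were well above background in all 8 channels (43.3%, against 18.5% of all clones). At stage 2 the count was 52 (86.7%, against 36%), at stage 3 29 (48.3%, against 31.4%) and at stage 4 35 (58.3%, against 27.3%). The stage 2 channels all come from the arrays of the rule, and 4 of the 8 channels at stages 1 and 3 do, so the stage 2 maximum is no separate support for the peak. The stage 4 channels come from none of them.

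The peak clones were unevenly placed in the library. Of the 20 plates of 96 clones, plates 1 to 9 held 15 of the 60 and plates 10 to 18 held 45, with none on plates 1, 3, 19 and 20 and 11 on plate 12. Each of the 16 print blocks, which hold 120 clones, had 1 to 8. How clones were assigned to plates is not given in the sources used here. Of the 60, 22 shared their well position with another of the 60, in 9 wells. The count that random placement over the 96 well positions would give was not computed, so the 22 are not read as an excess.

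**Figure D5:**
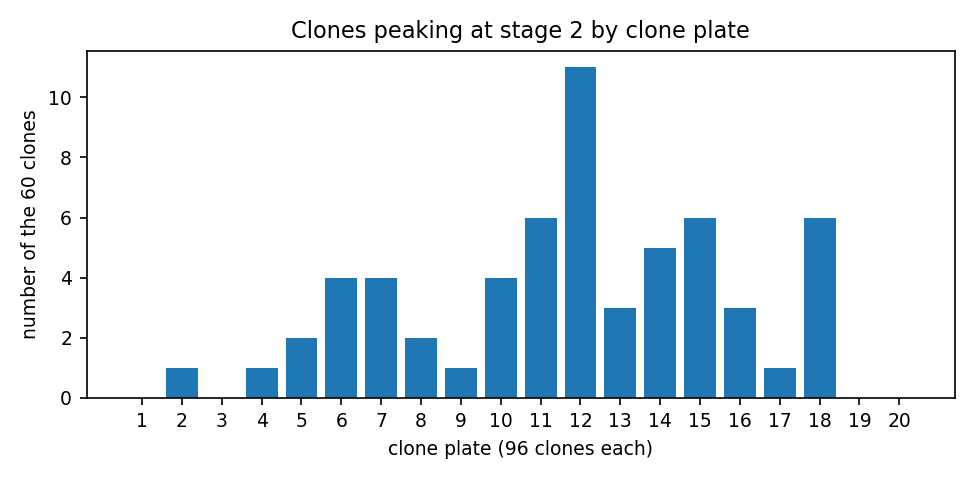
Number of the 60 clones (vertical) on each of the 20 library plates (horizontal, 96 clones per plate). Plate 12 held 11, and plates 1, 3, 19 and 20 held none.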

How the data were processed

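The deposited scanner files, written by the authors with GenePix, give raw foreground and background intensity per spot for Cy3 and Cy5. The series value table they deposited holds log2 ratios per spot. The submitters' processing notes name limma, and the methods describe offset background subtraction, loess and a log odds (B) above 0 as threshold. RNA was labelled by direct incorporation from an oligo-dT primer. Each array had 4560 spots in 16 blocks: 1920 clones in duplicate (3840 spots), 112 alignment spots and 608 blanks.

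Clones were chosen by the rule on the series table, spots averaged per clone. Its ratios correlated with the scanner ratios at 0.864 to 0.978 across spots, and its column medians lay between -0.042 and 0.05. Fitted changes came from the scanner files: normexp (offset 50), print-tip loess with weight 0 for alignment and blank spots, duplicates averaged, no scaling between arrays. The 8 arrays outside the rule were fitted in limma 3.58.1 (R 4.3.3) with a mean per pair of stages and a single spread per clone over both pairs. The fit had 6 residual degrees of freedom (prior 3.49), and tests were two-sided, with Benjamini-Hochberg adjustment over 1920 clones. The script was tested on simulated data. Values per array are from the series table for Stage2/Stage1 and Stage3/Stage2 and from the scanner files otherwise.

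The share of clones well above background per array was 23.9% to 80.9% for Cy5 and 24.2% to 67.6% for Cy3, and 0 spots were saturated. The number of arrays limits the precision. The named clones were the 2 highest by stage 2 over stage 1 and the 2 other lowest by stage 3 over stage 2. Gene lists and cell type markers could not be applied, since no table used here pairs clones with genes. The clones, the lists and the rule were chosen with earlier results of these data known. Alternatives covered background correction, normalization, filtering, model, threshold, a replicate block and single arrays. Figures were drawn with matplotlib.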

Additional observations from a re-analysis of the deposited data

How the results depend on the processing

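The 34 clones called for stage 4 vs stage 3 became 19 with median centring in place of loess (13 rose, 6 fell, so that 68.4% of calls rose against 52.9%), 19 with scaling between arrays (12 and 7, 63.2%), 13 in the loop fit to all 16 arrays (11 and 2, 84.6%) and 14 at a log odds above 0 (9 and 5). Over all clones these settings called 20.2%, 18.6%, 24.1% and 12.6% in turn, against 31.5% in the main fit. Without single arrays the count among the 60 was 21 to 39. The 20 clones called for stage 3 vs stage 1 through stage 4 (45% rose) became 5 with median centring (0 rose, 5 fell), 11 with a normexp offset of 0 (3 and 8), 7 with scaling (0 and 7), 10 with own pair means on all 16 arrays (1 and 9), 7 in the loop fit (1 and 6) and 3 at a log odds above 0 (0 and 3). Over all clones these settings called 6.98%, 13.8%, 8.02%, 16%, 22.2% and 5.47% in turn, against 18.2% in the main fit. Without single arrays the count among the 60 was 7 to 29. The deposited table gave 30 (18 and 12) and 15 (6 and 9), against 29.4% and 16% of all clones. For stage 4 vs stage 1, 0 clones were called in every setting. On the deposited table the rule found 39 clones at a threshold of 0.5 and 57 to 71 without single arrays. On the scanner files in its place it found 30 without background correction (28 of them among the 60), 54 with print-tip loess (47), 59 with whole-array loess (58) and 76 with median centring (51). Restricted to these 47, an alternative chosen after the data were seen, the counts were 27, 0 and 17. Values that changed sign were near 0 or from the loop fit. For stage 4 vs stage 1, whole-array loess gave 0.12 for Myt01-013D04 and 0.12 for Myt01-008H05, the deposited table gave 0.13, 0.10 and, for Myt01-013D02, 0.012, and the loop fit gave 0.68 for Myt01-013D04 and 0.43 for Myt01-008H05. Without single arrays Myt01-013D04 had -0.092 to 0.0025. For stage 3 vs stage 1 the loop fit gave -0.51 for Myt01-012D02. The cause of these changes was not tested. Whether replicate numbers pair the arrays was not settled. Deviations of same-numbered Stage4/Stage3 and Stage4/Stage1 arrays correlated at -0.07, -0.24, 0.11 and 0.13, and no array correlated best with its own number. Duplicate spots of all clones correlated at only 0.325 to 0.708 on the Stage4/Stage1 arrays, which limits this check. With the replicate block the counts were 30 (17 rose, 13 fell), 0 and 16 (7 and 9), against 27.9%, 0% and 14.5% of all clones. The block lowered the SE of stage 4 vs stage 3 for the clones named, from 0.10 to 0.095 for Myt01-013D04, 0.11 to 0.081 for Myt01-008H05, 0.27 to 0.18 for Myt01-012D02 and 0.20 to 0.14 for Myt01-013D02.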

Other observations

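Several of the 60 clones shared a well position on neighbouring plates. One well position held 4 of the 60 clones, on plates 12 to 15, and all 4 fell to stage 4, by -1.14 to -0.50 on the log2 scale. Myt01-012D02 and Myt01-013D02 were 2 of them. A second held 4, on plates 15 to 18, and all 4 fell, by -0.81 to -0.20. Another held 2, Myt01-013D04 among them, and both rose (0.50 and 1.81). Not all shared wells were on adjacent plates: others were on plates 7 and 9, 16 and 18, 2 and 6, and 10 and 15. In 7 of the 9 shared wells all clones had 1 sign, called or not. Most of the 9 held only 2 clones. The count that random placement would give was not computed, so the 7 are not read as an excess. Over all clones, the change of stage 4 vs stage 3 correlated between the same wells of adjacent plates with a median r of 0.105 over 19 pairs of plates (-0.137 to 0.487, over 0.2 in 6 pairs, 96 wells each), against a median of -0.001 (-0.275 to 0.239) over 120 pairs more than 4 plates apart. Clones on 1 slide share its spot order and arrays, and with no clone sequence in the tables used here, whether neighbours hold the same cDNA was not tested. The wells were compared after the values had been seen.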
